A study of Rattus norvegicus with 4 samples.

Results

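Heat shock proteins and their DnaJ cochaperones were examined in a deposited expression table of 4 liver libraries from Lewis rats (allotype RT1L). Members were all rows whose gene symbol begins with Hspa, Hspb, Hspd, Hspe, Hsph, Hsp90, Dnaja, Dnajb or Dnajc, together with Hsf1, Hsf2, Bag3 and Stip1, where at least 1 library had a value other than 0. The rule found 68 members among 12874 such genes, and 57 of the 68 passed the filter on low levels that 9885 genes passed. There was 1 library each for partial hepatectomy with ASCs-miR27b, partial hepatectomy with ASCs-siRNC, partial hepatectomy with saline, and naive control, with the ASCs or saline given into a vein. They are called here the miR-27b, siRNC, saline and naive livers. The labels do not spell out ASCs or siRNC, and both are used here as names. The sources used here give no age, sex, time after surgery or number of animals behind a library.

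HSP70 proteins bind exposed stretches of unfolded proteins and release them in an ATP-driven cycle. DnaJ proteins, also called J proteins or HSP40s, deliver clients and start that cycle, while HSP110 proteins and BAG proteins reset it by exchanging the nucleotide. HSP90 acts later on maturing clients such as nuclear receptors and kinases, small HSPs hold unfolded proteins without ATP, and HSP60 with HSP10 folds proteins inside mitochondria. The transcription factor HSF1 raises cytosolic chaperones when unfolded protein accumulates, and a separate response raises the chaperones of the endoplasmic reticulum (ER). Hepatocytes secrete most plasma proteins and so depend heavily on ER folding.

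The table holds log2 values relative to one baseline per gene, so it shows how far the 4 libraries lie apart within a gene and not how abundant the gene is. Each group is 1 library, so the spread between animals is unknown and no test could be run; every difference below is between 2 libraries. Counting error alone gives the log2 ratio of a pair of libraries an SD of 0.51 at 16 reads in each and 0.13 at 16 times as many. The number of reads could be recovered for 15 members. Of the 57 members kept, 5 had recovered reads, 33 fell in a lower level class and 19 in an upper one. The lower class stands for at least 16 scaled reads and the upper for at least 16 times as many. In the lower class only values above the baseline were checked, so a library below it can hold fewer than 16. Size factors were inferred here from the most common value among genes with only 1 library not at 0. They were 0.956, 1.01, 1.04 and 0.977 for the miR-27b, siRNC, saline and naive libraries. The median log2 fold over all kept genes lay between -0.025 and 0.003 in the 6 pairwise comparisons. All 8 hepatocyte markers checked, among them Alb and Hnf4a, passed the filter and none was 2-fold apart in any pair of libraries. Marker lists of other cells did differ. All 9 kept macrophage and Kupffer cell markers were higher in each hepatectomised liver than in the naive liver, with medians of 1.62 (miR-27b), 1.30 (siRNC) and 1.38 (saline) on the log2 fold scale, and the 5 kept erythroid markers had medians of 2.02, 1.95 and 2.36 in the same order. In bulk tissue, fewer cells of a type and less RNA per cell cannot be told apart.

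Promoter sequence is shown for 4 members whose values the results below turn on and whose window held a searched motif. The windows run from 250 bases before to 50 bases after the gene start and are RefSeq sequences on the GRCr8 build, which is not the rn5 build named for the deposited values. The searched motifs, each on both strands, were the heat shock element bound by HSF1 (GAA, any 2 bases, TTC, any 2 bases, GAA) and the ER stress response element (CCAAT, any 9 bases, CCACG). Capitals mark the matches. Hsph1 and Dnaja1 each held the heat shock element, Hspa5 held the ER element, and Hsp90b1 held the ER element at 2 places.
Hsph1 (chr12:10427118-10427417, plus strand): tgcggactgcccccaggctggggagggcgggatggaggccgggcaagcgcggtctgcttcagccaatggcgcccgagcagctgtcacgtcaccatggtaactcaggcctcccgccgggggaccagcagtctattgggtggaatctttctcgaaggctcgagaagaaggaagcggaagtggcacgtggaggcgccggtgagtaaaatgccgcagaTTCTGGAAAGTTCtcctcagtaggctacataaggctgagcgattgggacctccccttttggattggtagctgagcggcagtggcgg
Dnaja1 (chr5:60638154-60638453, plus strand): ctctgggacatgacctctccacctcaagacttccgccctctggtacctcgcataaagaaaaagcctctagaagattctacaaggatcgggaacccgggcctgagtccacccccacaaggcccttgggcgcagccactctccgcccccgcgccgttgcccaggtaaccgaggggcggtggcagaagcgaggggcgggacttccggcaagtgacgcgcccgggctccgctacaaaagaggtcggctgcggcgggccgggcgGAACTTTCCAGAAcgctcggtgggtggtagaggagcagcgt
Hspa5 (chr3:38452766-38453065, plus strand): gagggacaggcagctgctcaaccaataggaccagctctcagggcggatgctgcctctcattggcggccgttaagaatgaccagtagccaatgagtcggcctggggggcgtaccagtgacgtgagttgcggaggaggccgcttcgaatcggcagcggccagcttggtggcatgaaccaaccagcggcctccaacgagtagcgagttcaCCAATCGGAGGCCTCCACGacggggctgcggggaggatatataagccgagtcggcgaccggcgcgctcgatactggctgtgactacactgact
Hsp90b1 (chr7:23012244-23012543, minus strand): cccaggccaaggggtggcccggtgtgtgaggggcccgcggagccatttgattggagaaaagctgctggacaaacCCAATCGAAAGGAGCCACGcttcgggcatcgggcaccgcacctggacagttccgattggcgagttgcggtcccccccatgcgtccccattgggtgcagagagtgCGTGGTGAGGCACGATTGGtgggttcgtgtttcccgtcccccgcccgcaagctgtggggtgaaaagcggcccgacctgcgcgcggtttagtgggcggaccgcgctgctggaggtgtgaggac
The heat shock match began 36 bases before the start of Hsph1 and 9 bases after the start of Dnaja1. The ER matches began 43 bases before the start of Hspa5, and 176 and 72 bases before the start of Hsp90b1.

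Promoter windows could be matched for 52 of the 68 members. The heat shock element was found in 4 of these 52 windows (7.69%) and in 0.798% of all 33469 windows of the same length. The other holders were Hspd1 and Hspe1, which lie head to head, so that their windows share 211 bases and the same element. The ER element was found in 3 of the 52 windows (5.77%), those of Hspa5, Hsp90b1 and Dnajc3, and in 0.0657% of all windows. Neither motif was found in the windows of Dnajb1, Dnajb6, Bag3, Hspb1, Stip1, Dnajb9 and Dnajb11, whose values are also given below. No window was matched for Hsp90aa1 or Dnajb4. A match describes the letters of the window only, and no match says nothing about the factor.

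The chaperone genes differed little in size between the libraries. The span between a member's highest and lowest library had a median of 0.44 on the log2 scale over the 57 kept members, and 0.56 over all 9885 kept genes. In 54 of the 57 the whole span was under 2-fold, which held for 78.6% of all kept genes. In the lower level class the median span was 0.42 for the 33 members and 0.58 for all genes. In the upper class it was 0.40 for the 19 members and 0.42 for all genes, so the members hardly differed from other genes there. About 32.4% of the upper class would be there by chance steps of the values, so it also holds genes of lower level. The 3 kept members with a span of 2-fold or more were Dnajc12, Dnajc24 and Hspbap1.

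**Figure D1:**
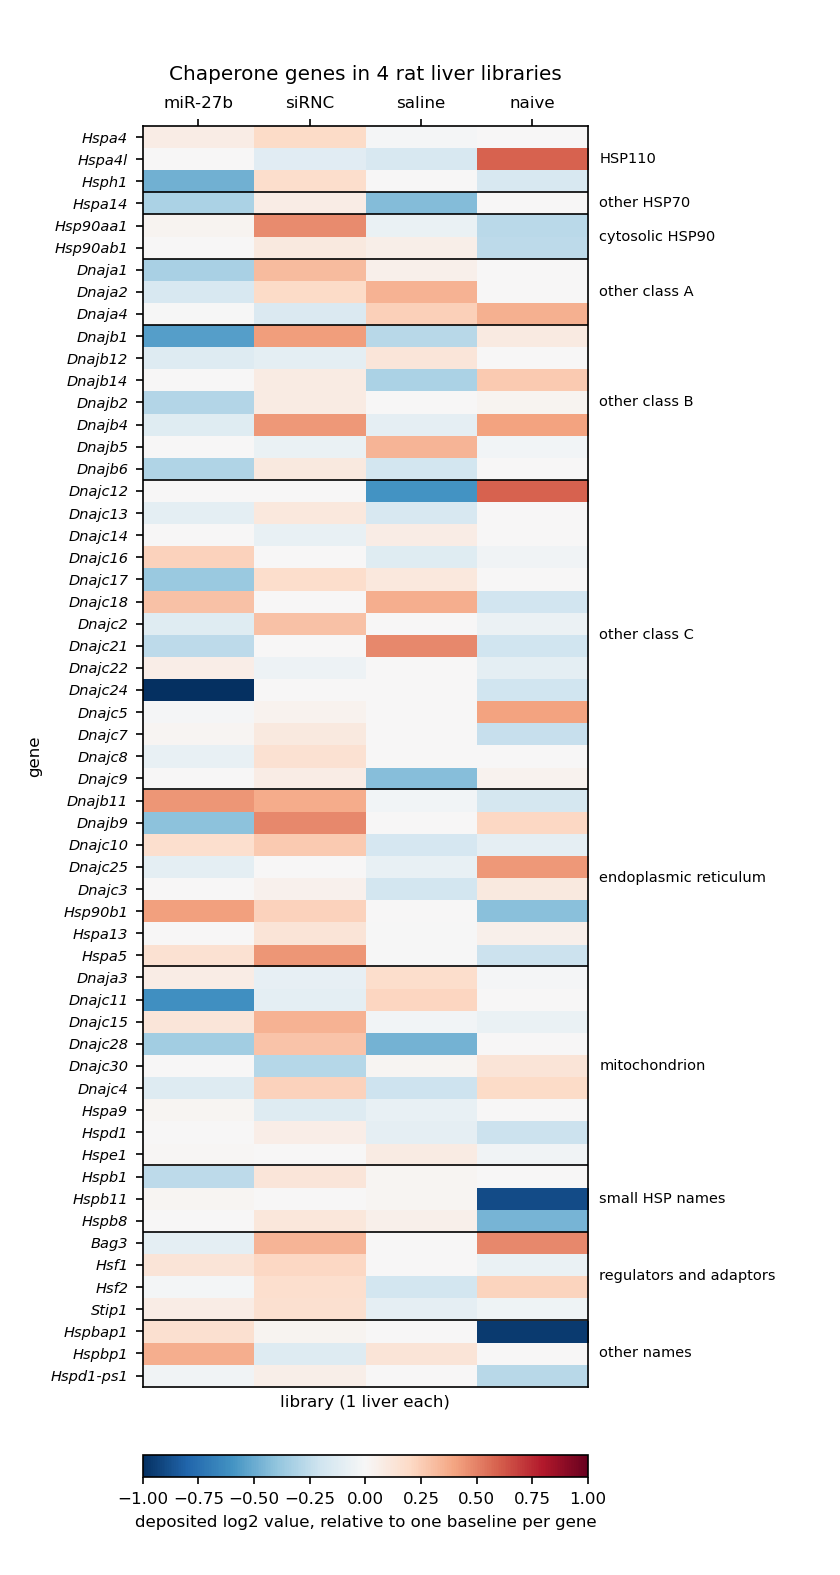
Heat map of the deposited log2 values of the 57 kept members (rows, grouped by role) in the miR-27b, siRNC, saline and naive libraries (columns, 1 per group), where red is above and blue below one baseline per gene. Most rows stay within 0.5 of the baseline, and Hspbap1 and Hspb11 are low in the naive library alone.

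The direction of these small differences was uneven. The siRNC library held the highest of the 4 values in 29 of the 57 kept members (50.9%), while it was highest in 21.4% of all kept genes. The miR-27b library was highest in 7 members (12.3%; 25.1% of all genes) and lowest in 19 (33.3%; 26.1% of all genes). The saline library was highest in 11 members and the naive library in 10, where the shares over all genes were 21.4% and 32.1%. Members of one pathway are not independent of each other, and each condition is 1 library, so these counts describe the 4 libraries.

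**Figure D2:**
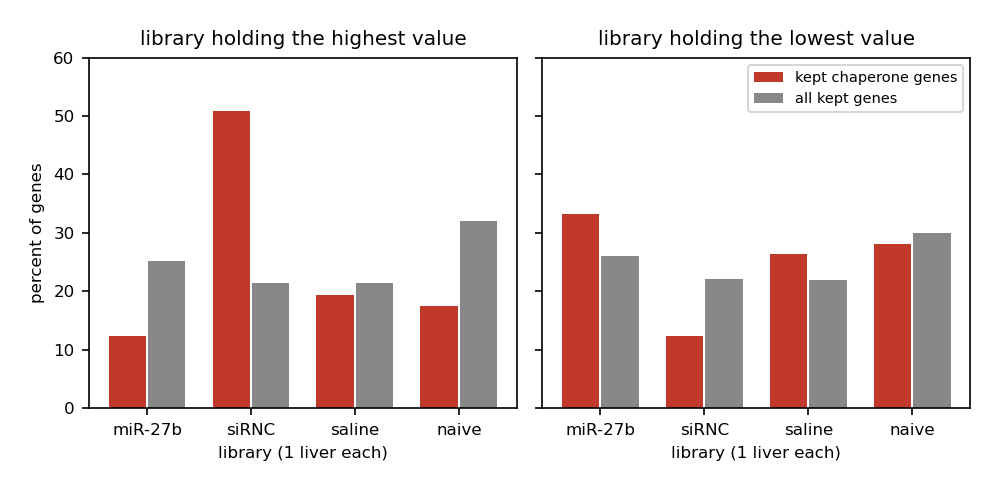
Percent of the 57 kept chaperone genes (red) and of all 9885 kept genes (grey) whose highest value (left) or lowest value (right) of the 4 libraries lies in the library named on the horizontal axis. The siRNC bar for the highest value stands at 50.9% for chaperone genes and 21.4% for all genes.

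Among the cytosolic J proteins, Dnajb1, the main heat-inducible partner of HSP70, had a deposited log2 value of -0.55 in the miR-27b, 0.42 in the siRNC, -0.28 in the saline and 0.09 in the naive liver. Dnaja1, a class A partner of constitutive HSP70, had -0.33, 0.32, 0.05 and 0.00 in the same livers. Both were highest in the siRNC liver and lowest in the miR-27b liver. Dnajb4, a close relative of Dnajb1, had -0.13 in the miR-27b, 0.44 in the siRNC, -0.09 in the saline and 0.40 in the naive liver. Dnajb6, which keeps aggregation-prone proteins soluble, had -0.30 in the miR-27b, 0.10 in the siRNC, -0.18 in the saline and 0.00 in the naive liver. Dnajb2 was also highest in the siRNC and lowest in the miR-27b liver. Dnaja2 (-0.16 in the miR-27b, 0.19 in the siRNC, 0.35 in the saline and 0.00 in the naive liver) and Dnaja4 (-0.01, -0.14, 0.24 and 0.35) did not follow that order. Dnajb12 and Dnajb14, J proteins of the ER membrane, and Dnajb5 spanned 0.25, 0.58 and 0.40 between their highest and lowest libraries.

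Hsph1, the heat-inducible HSP110, had deposited values of -0.48 in the miR-27b, 0.17 in the siRNC, 0.00 in the saline and -0.16 in the naive liver, so the siRNC liver was again highest and the miR-27b liver lowest. Hspa4, a constitutive HSP110, spanned only 0.20. Hspa4l, the third member of that family, had 28, 27.1, 27.2 and 43 reads in the miR-27b, siRNC, saline and naive libraries. The naive library stood above the other three, with log2 folds of -0.59, -0.70 and -0.75 in the miR-27b, siRNC and saline livers over the naive liver. Only the 95% counting interval of the saline fold lay wholly below 0 (exact conditional binomial, -1.51 to -0.03). That of the siRNC fold ran to 0.01 and that of the miR-27b fold to 0.13. Reads were rounded to whole numbers for the intervals, which made the saline and siRNC reads equal, so these bounds do not set those folds apart.

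The cytosolic HSP90 genes were lowest in the naive liver. Hsp90aa1, the stress-inducible form, had deposited values of 0.03 in the miR-27b, 0.47 in the siRNC, -0.06 in the saline and -0.27 in the naive liver. Hsp90ab1, the constitutive form, had 0.00, 0.10, 0.06 and -0.26 in the same order. Stip1, which bridges HSP70 and HSP90, spanned 0.25, with 0.07 in the miR-27b, 0.16 in the siRNC, -0.09 in the saline and -0.04 in the naive liver.

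Hsf1, the master factor of the heat shock response, had 0.13 in the miR-27b, 0.21 in the siRNC, 0.00 in the saline and -0.07 in the naive liver, and Hsf2 had -0.02, 0.17, -0.18 and 0.22. These are mRNA values, and HSF1 is mainly controlled at the protein level. Bag3, a heat-inducible exchange factor that steers HSP70 clients to autophagy, was highest in the naive liver: -0.10 in the miR-27b, 0.34 in the siRNC, 0.00 in the saline and 0.48 in the naive liver. Its partner Hspb8, a small HSP, went the other way between the hepatectomised and naive livers, with 0.00, 0.11, 0.05 and -0.46. Hspb1, the abundant small HSP known as HSP27, had -0.26, 0.12, 0.02 and 0.00.

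**Figure D3:**
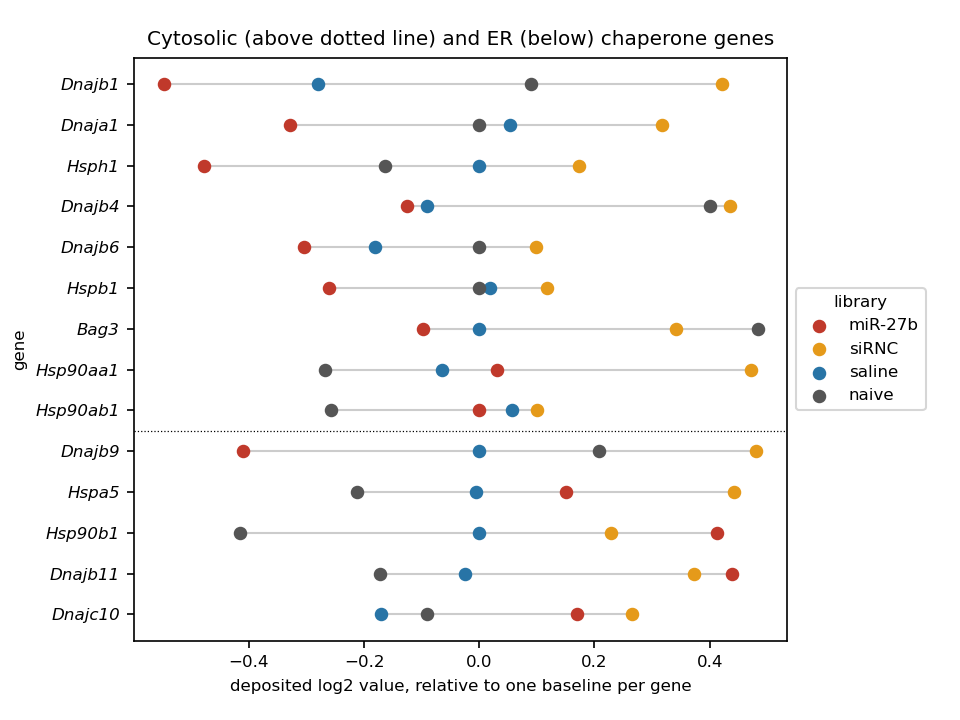
Deposited log2 values (horizontal axis, relative to one baseline per gene) of 9 cytosolic members above the dotted line and 5 ER members below it, with 1 point per library. The siRNC point is furthest right in 8 of the 9 cytosolic genes, and the naive point is furthest left in Hspa5, Hsp90b1 and Dnajb11. The genes drawn were picked and do not stand for all members. The siRNC library was highest in 29 of all 57 kept members. In the ER group it was highest in 4 of 8, and the naive library was lowest in 3 and highest in 2.

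In the ER group, Hspa5, the ER HSP70 known as BiP, had deposited values of 0.15 in the miR-27b, 0.44 in the siRNC, -0.01 in the saline and -0.21 in the naive liver. Hsp90b1, the ER HSP90 known as GRP94, had 0.41, 0.23, 0.00 and -0.42 in the same order. Dnajb11, a soluble J protein of the ER lumen, had 0.44, 0.37, -0.02 and -0.17. These genes were highest in the livers given ASCs and lowest in the naive liver. Dnajc10, a J protein with disulfide reductase activity, was also higher in the miR-27b (0.17) and siRNC (0.27) livers than in the saline (-0.17) and naive (-0.09) livers. Dnajb9, a J protein induced by ER stress, differed from them: it had -0.41 in the miR-27b, 0.48 in the siRNC, 0.00 in the saline and 0.21 in the naive liver, so that, as in Dnajb1, the siRNC liver was highest and the miR-27b liver lowest. Dnajc25 was highest in the naive liver (0.43), and Dnajc3, which held the ER element too, and Hspa13 spanned 0.28 and 0.13.

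Among the mitochondrial chaperones, Hspe1 (HSP10) spanned 0.12, Hspa9, the mitochondrial HSP70, 0.14, and Hspd1 (HSP60) 0.28 between their highest and lowest libraries. Dnaja3, a mitochondrial partner of Hspa9, spanned 0.26. Hspd1-ps1, by its name a pseudogene of Hspd1, had folds close to those of Hspd1, and reads of such copies may be shared, so neither is certain alone. Wider spans were seen in Dnajc11, a J protein of the mitochondrial membrane, with -0.62 in the miR-27b, -0.10 in the siRNC, 0.21 in the saline and 0.00 in the naive liver, and in Dnajc28, with -0.35, 0.28, -0.47 and 0.00. Dnajc15 had 0.12 in the miR-27b, 0.34 in the siRNC, -0.03 in the saline and -0.07 in the naive liver, and Dnajc30 and Dnajc4 spanned 0.42 and 0.43.

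Among the other class C J proteins, many of which serve a single process, Dnajc12 had the widest span. This cochaperone of aromatic amino acid hydroxylases, known from human studies, had deposited values of 0.00 in the miR-27b, 0.00 in the siRNC, -0.60 in the saline and 0.59 in the naive liver. The livers given ASCs lay between the saline and naive livers. Dnajc24, which takes part in making diphthamide on elongation factor 2, had 12, 26, 27 and 22 reads in the miR-27b, siRNC, saline and naive libraries and was low in the miR-27b library alone. Dnajc9, a histone chaperone, had 130, 144, 105 and 136 reads and was lowest in the saline library. Dnajc21, a factor of ribosome assembly, had deposited values of -0.26 in the miR-27b, 0.00 in the siRNC, 0.48 in the saline and -0.20 in the naive liver. Dnajc2, which sits on the ribosome with Hspa14, had -0.12, 0.29, 0.00 and -0.06, and Hspa14 itself had -0.32, 0.07, -0.44 and 0.00. Dnajc5, a J protein of secretory vesicles, was highest in the naive liver (0.40) and within 0.05 among the other three. Dnajc14, Dnajc22, Dnajc8 and Dnajc13 spanned 0.14, 0.17, 0.23 and 0.26, and Dnajc7, Dnajc16, Dnajc17 and Dnajc18 0.32, 0.35, 0.54 and 0.56.

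The symbol rule also caught names that are not HSPs or J proteins themselves. Hspb11, now known as an intraflagellar transport protein, had 0.02, 0.00, 0.02 and -0.89 in the miR-27b, siRNC, saline and naive livers, so the naive library was low and the others were nearly equal. Hspbap1, which binds small HSPs and belongs to a family of oxygenases, had 24.7, 23.8, 24.1 and 11.6 reads in the same order. Hspbp1, an exchange factor of HSP70, had 123.2, 92, 114 and 98 reads.

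In the first set of comparisons, each hepatectomised liver was set against the naive liver, which all 3 share. In the saline liver over the naive liver, no kept member was at least 2-fold higher and 1 was at least 2-fold lower, where 6.13% and 3.93% of all kept genes were. That member was Dnajc12 (log2 fold -1.19), which a pseudocount of 5 brought under 2-fold. Its reads were not recovered, so a baseline of 16 scaled reads, the bottom of its class, was assumed for that step. A higher level would shrink the fold less. In the siRNC liver over the naive liver, no kept member was 2-fold apart in either direction, where 6.43% of all kept genes were higher and 3.56% lower. In the miR-27b liver over the naive liver, 1 member was at least 2-fold higher and none lower, where 8.66% and 4.14% of all kept genes were. That member was Hspbap1 (1.12, 95% counting interval 0.04 to 2.22), which is itself no chaperone and was under 2-fold with a pseudocount of 5. In the miR-27b liver 24 members lay above and 33 below the naive liver, where 47.8% and 52.2% of all kept genes did. In the siRNC liver 40 lay above and 17 below (49.7% and 50.3% of all kept genes), and in the saline liver 31 above and 26 below (49.1% and 50.9%). The member medians were -0.06 (miR-27b), 0.12 (siRNC) and 0.04 (saline), beside medians over all genes of -0.025, -0.003 and -0.009. With the stricter filter, which left 21 members, the miR-27b median turned to 0.07.

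Folds short of 2-fold over the naive liver were as follows. Hsp90b1 had log2 folds of 0.83 (miR-27b), 0.64 (siRNC) and 0.42 (saline), and Dnajb11 had 0.61, 0.55 and 0.15. Hspa5 had 0.36, 0.65 and 0.21, and Hsp90aa1 had 0.30, 0.74 and 0.20. Dnajb1 had -0.64, 0.33 and -0.37, and Dnajb9 had -0.62, 0.27 and -0.21, so in both the siRNC liver lay above the naive liver and the other hepatectomised livers below it. Hspbap1 had folds of 0.99 in the siRNC and 0.96 in the saline liver, with counting intervals that included 0 in both (-0.10 to 2.09, and -0.14 to 2.05). Hspb11 had 0.91, 0.89 and 0.91, below the 2-fold limit of 1 in each comparison. Besides the macrophage and red cell lists given above, other marker lists stood apart from naive. The stellate and fibroblast list had 2, 5 and 2 of 7 kept markers at least 2-fold higher in the miR-27b, siRNC and saline livers, the endothelial list 4, 2 and 3 of 8, and the smooth muscle list 3, 2 and 1 of 5. Both kept neutrophil markers were at least 2-fold higher in each, with medians of 3.92, 3.28 and 2.27, while the neutrophil markers Elane and Mpo were listed at 0 in all 4 libraries. The part of these cells in the chaperone values was not tested.

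The livers given ASCs were next set against the saline liver, which both comparisons share. In the siRNC liver, no kept member was 2-fold apart, where 2.65% of all kept genes were higher and 1.92% lower. The direction was uneven: 41 of 57 members lay above 0 and 16 below, where 49.3% of all kept genes lay above 0 and 50.7% below, and the member median was 0.13 beside -0.006 over all genes. All 8 kept members grouped under the ER lay above 0, from 0.07 to 0.48. That group was set by hand and does not hold every J protein of the ER. Dnajb12 (-0.22) and Dnajb14 (0.40), of the ER membrane, were counted under class B. Dnajc14 (-0.14), Dnajc16 (0.12) and Dnajc18 (-0.37) were counted under class C, so the even direction holds for the group as set. Above 0 too were all 4 regulators and adaptors, from 0.21 to 0.35. Dnajc28 (0.75), Dnajb1 (0.70) and Dnajc12 (0.60) were furthest up, and Dnajc21 (-0.48) furthest down. Fibroblast and stellate cell markers also stood high in the siRNC library: 4 of 7 kept were at least 2-fold higher than in the saline liver, with a median of 1.09 and Lum at 4.82, and their part in the chaperone values was not tested.

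In the miR-27b liver over the saline liver, no kept member was at least 2-fold higher and 1 was at least 2-fold lower, where 2.72% and 2.09% of all kept genes were. That member was Dnajc24 (log2 fold -1.05, 95% counting interval -2.17 to -0.02), which a pseudocount of 5 brought under 2-fold. The members were evenly split, with 27 above 0 and 30 below, beside 50.1% and 49.9% of all kept genes, and a median of -0.01. Dnajc11 (-0.83), Dnajc21 (-0.74), Dnaja2 (-0.51) and Hsph1 (-0.48) were next lowest with Dnajc17 (-0.48), a J protein of the spliceosome. Dnajc12 (0.60), Dnajb11 (0.46), Dnajc9 (0.43, 95% counting interval 0.05 to 0.81) and Hsp90b1 (0.41) were highest. Of 5 kept smooth muscle markers 2 were at least 2-fold higher, with Acta2 at 2.14, and of 2 kept neutrophil markers 1 was, S100a9 at 2.40, and their part was not tested.

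The last comparison set the miR-27b liver against the siRNC liver. With 1 library each, the kind of ASCs given and differences between animals or libraries cannot be told apart. No kept member was at least 2-fold higher and 1 was at least 2-fold lower, where 3.19% and 2.67% of all kept genes were. That member was again Dnajc24 (-1.04, 95% counting interval -2.16 to -0.01), under 2-fold with a pseudocount of 5. None of the members 2-fold apart in these comparisons passed the stricter filter on low levels. Dnajb1 was at -0.97, Dnajb9 at -0.89, Hsph1 and Dnaja1 at -0.65 each, Dnajc28 at -0.63 and Dnajb4 at -0.56. In all, 16 of 57 members lay above 0 and 41 below, where 50.5% and 49.5% of all kept genes did, and the member median was -0.10 beside 0.003 over all genes. By role, 6 of 7 class B outside the ER group (Dnajb12 and Dnajb14 among them) and 10 of 14 other class C lay below 0. So did 6 of 8 in the ER group as set, 4 of 4 regulators and adaptors, and 5 of 9 mitochondrial members. Dnajc14 (0.07), Dnajc16 and Dnajc18, outside the ER group, lay above 0. Highest were Hspbp1 (0.49, 95% counting interval 0.09 to 0.90), Dnajc18 (0.29), Dnajc30 (0.29) and Dnajc16 (0.23), and Hsp90b1 was at 0.18. The siRNC library enters this comparison and the one with saline with opposite sign, so a gene high in that library alone appears in both. Fibroblast and stellate markers stood apart here too (4 of 7 kept at least 2-fold lower, median -1.03).

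**Figure D4:**
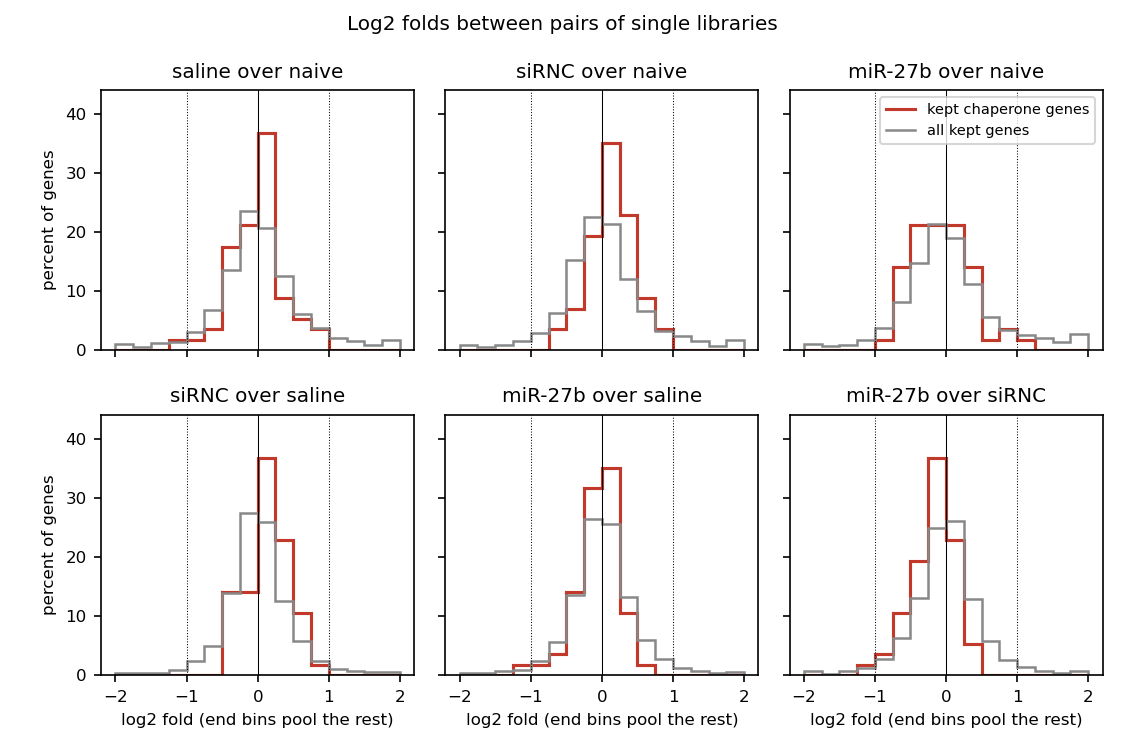
Distribution of log2 folds (horizontal axis, bins of 0.25 with the end bins pooling the rest) of the 57 kept chaperone genes (red) and all 9885 kept genes (grey) in the 6 pairs of libraries, as percent of genes. Dotted lines mark 2-fold; 0 or 1 chaperone gene lies beyond them on each side, and the red curve is shifted right for siRNC over saline (median 0.13) and left for miR-27b over siRNC (median -0.10).

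With 1.5-fold as the limit, a limit added after the data were seen, the members' share was below that of all kept genes in 11 of the 12 counts. The exception was the count of lower members in the miR-27b liver over the siRNC liver, where 6 of 57 members were lower and none higher (8.79% and 9.0% of all kept genes). In the siRNC liver over the saline liver, 3 were higher and none lower (8.22% and 7.21%). In the miR-27b liver over the saline liver, 1 was higher and 3 lower (8.67% and 7.59%). Over the naive liver, 4 were higher and 6 lower in the miR-27b liver (15.3% and 12.6%), 5 higher and 2 lower in the siRNC liver (13.6% and 10%), and 3 higher and 2 lower in the saline liver (13.5% and 10.9%).

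Partner genes that carry other names were read from lists that share no member with the set. Of 71 kept partners, 4 were at least 2-fold higher than naive in the miR-27b liver, 3 in the siRNC liver and 2 in the saline liver, and 0, 1 and 1 at least 2-fold lower, all smaller shares than those of all kept genes given above. None of the 8 subunits of TRiC, the cytosolic chaperonin that folds actin and tubulin, was 2-fold apart in any comparison. Among 17 HSP90 cochaperones, Fkbp5, a glucocorticoid-induced partner of steroid receptors, was the one at least 2-fold apart: its log2 fold over the naive liver was 1.87 in the miR-27b, 0.25 in the siRNC and 1.79 in the saline liver. Among 9 HSP70 partners, St13, which binds HSP70, was lowest in the miR-27b liver over the siRNC liver, at -0.63.

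Most of the 14 ER folding helpers lay on the same side as BiP in the livers given ASCs. All 14 were above 0 in the siRNC liver over the naive liver and all 14 over the saline liver, and in the miR-27b liver 12 of 14 were above 0 over the naive liver and 12 of 14 over the saline liver. In the saline liver over the naive liver 10 of 14 were. Of all kept genes, 49.7%, 49.3%, 47.8%, 50.1% and 49.1% lay above 0 in these 5 comparisons. The stellate and fibroblast markers, with medians over naive of 0.72 (miR-27b), 1.93 (siRNC) and -0.06 (saline), stood high in the siRNC liver, and their part in the ER values was not tested. Serpinh1, the collagen chaperone HSP47, was highest, with log2 folds over naive of 1.55 (miR-27b), 1.32 (siRNC) and 0.72 (saline). Calr, a lectin chaperone, had 0.68, 0.45 and 0.02, and Pdia4, a protein disulfide isomerase, 0.74, 0.75 and 0.22; both were named after their values were seen. Manf (0.19, 0.77 and 0.61) was lower in the miR-27b liver than in the other hepatectomised livers, as Dnajb9 was.

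Of 10 mitochondrial partners and proteases, Clpx, the ATPase of a matrix protease, had log2 folds over naive of -0.34 (miR-27b), -1.66 (siRNC) and -0.94 (saline), and no other was 2-fold apart. Among 9 kept genes of the list of other reported HSF1 targets, the polyubiquitin gene Ubb (1.17, 0.77 and 0.91) and the signalling regulator Rgs2 (1.49, 1.4 and 1.25) were above naive in the miR-27b, siRNC and saline livers. Cryab, a small HSP of another name, was at -0.05, -0.26 and -1.21. Zfand2a, which is induced by arsenite and heat, was at -0.66, 0.32 and 0.49, and was therefore lower in the miR-27b liver than in both other hepatectomised livers, at -0.98 over the siRNC and -1.15 over the saline liver.

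The 11 members left out by the filter had few reads or no clear level and support no comparison. Hspa1b, a heat-inducible HSP70, had 1 read in the miR-27b and 2.5 in the saline library and was at the floor of 1 scaled read in the siRNC and naive libraries. Whether reads were shared with Hspa1a, listed at 0 throughout, was not tested. The few reads of Hspa1b are therefore not read as near absence of heat-inducible HSP70. For Hspa2, 3 saline and 1 naive reads were recovered, and Hspb7 had 2 in the siRNC library alone. Dnajc27 had 11, 10, 9 and 5 reads and Hspb6 8, 6, 12 and 7 reads in the miR-27b, siRNC, saline and naive libraries, and every counting interval of their folds included 0. Hspa12a had 4, 3, 4 and 2 reads. Hspa12b, whose reads were not recovered, had deposited values of 0.00, -0.06, -0.59 and 0.49. Hspb2, Hspa1l, Dnajb7 and Dnajb13 had at most 2.1 reads in any library.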

How the data were processed

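Poly(A) RNA libraries of 4 liver samples were made with TruSeq reagents, per the labels' protocols, and read on a MiSeq. DESeq and the rn5 build are named, per the submitters' processing notes, without a version. The aligner and counter were not given in the sources used here. Values were deposited by the authors as log2, under the name normalized. Their spacing fits scaled reads with a floor of 1, from which a single baseline per gene, close to that gene's middle libraries, was subtracted. Among the 12874 genes not at 0 throughout, 77.3% have a middle library at exactly 0. Of all rows, 18583 are at 0 throughout.

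The design had assumed linear normalized values with a pseudocount of 5. As the unit was log2, folds are differences of deposited values with no pseudocount. Reads were recovered from the spacing of the values, in steps of 1/101 read up to 200 reads and as whole numbers up to 3000, where the posterior was above 0.9. Other genes were put in a lower class of at least 16 scaled reads, or an upper class of at least 16 times as many, from the float32 step of their values. For the lower class only values above the baseline were checked, so a library below it can hold fewer than 16. In 5487 of its 6062 genes no library had a finer step. About 32.4% of the upper class would be there by chance steps, and no such share was estimated for the lower class. Genes were kept with a recovered mean of at least 10 scaled reads or either class. The recovery was tested on simulated data, but the outcome is not given here and is not used as support.

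Called means at least 2-fold apart. With 1 library per group no p-value was computed. The 95% intervals of recovered genes are exact conditional binomial (Clopper-Pearson) and cover counting error only. PCR duplicates are not separable. The members, gene lists and roles were chosen with earlier results of these data known. Companion lists left out genes that are members. Any member could be named, with full values for members 2-fold apart and for a fixed list of members; of the companion lists, the highest, the lowest and those 2-fold apart were named. Alternatives were no filter, a stricter filter (mean of 50 scaled reads or more, or the upper class), a pseudocount of 5, centring on the median, a 1.5-fold limit and leaving out 4 names. One gene of the companion lists is not reported here by name, and the counts of its list include it.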

Additional observations from a re-analysis of the deposited data

How the results depend on the processing

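No paired analysis was possible because each group has 1 library, and for the same reason no replicate could be left out. Counts of members at least 2-fold apart were small, so most settings moved some of them. With no filter on low levels, 3 members were higher in the miR-27b liver over the naive liver, 1 was lower in the siRNC liver over the naive liver, and 2 were higher and 3 lower in the saline liver over the naive liver. Over the saline liver, 2 were then lower in the siRNC liver, and 1 was higher and 3 lower in the miR-27b liver, and 1 was higher in the miR-27b liver over the siRNC liver. With the stricter filter, and likewise with a pseudocount of 5, the counts higher for miR-27b over naive and lower for saline over naive, miR-27b over saline and miR-27b over siRNC were all 0. The stricter filter left 21 members and moved their median for miR-27b over naive to 0.07, where it had been -0.06. Leaving out Hspbap1, Hspbp1, Hspb11 and Hspd1-ps1, an alternative added after seeing the data, left 0 higher for miR-27b over naive. The added 1.5-fold limit gave 4 higher and 6 lower for miR-27b over naive, 5 and 2 for siRNC over naive, 3 and 2 for saline over naive, 3 higher for siRNC over saline, 1 and 3 for miR-27b over saline and 6 lower for miR-27b over siRNC. Of 342 single-gene folds, centring moved none. The pseudocount moved 17, took all 4 that were 2-fold apart under the limit and reversed 0. For genes without recovered reads, Dnajc12 among them, it was added with the baseline at the bottom of the level class. Their result with the pseudocount therefore depends on that assumed level. All 4 rest on genes with 11.6 to 27 reads or in the lower level class, where the counting SD reaches 0.51.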

Other observations

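The table also holds 26 rows with chaperone names at 0 in all 4 libraries. They include both rows of Hspa8, the constitutive HSP70 used by nearly every cell, and both rows of Hspa1a. These rows carry identifiers with a chromosome and a copy number. Of the 1263 rows with such identifiers, 1050 (83.1%) were at 0 throughout, where 58.1% of the 30194 other rows were. The listing at 0 is therefore not read as absence of expression, and Hspa8 and Hspa1a are not analysed here.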
